A study of Mus musculus with 16 samples.

Results

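Metallothioneins and zinc transporters were followed through a test of glucocorticoid response in the mouse uterus. The set holds 9 genes, Mt1, Mt2, Mt3, Mtf1, Slc30a1, Slc30a4, Slc39a8, Slc39a10 and Slc39a14, out of 24659 genes and unnamed targets tested, 16536 of which carry a gene symbol. They were picked by name, through the RefSeq accession of each probe. The array carries 15 probes for them, all 15 passed the filter on dim signals, and the brightest probe stood for each gene. That probe was well above background on all 16 arrays for each of the 9 genes and saturated on none.

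Metallothioneins are small cysteine-rich proteins that bind zinc and copper, and Mt1 and Mt2 are textbook genes induced by both metals and glucocorticoids. Zinc moves out of the cytosol through the Slc30 family and into it through the Slc39 family, and the zinc-sensing factor Mtf1 switches on Mt1, Mt2 and Slc30a1 through metal response elements when zinc is in excess. Mt3 is known mainly from brain.

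Whole-uterus RNA of 4 groups was measured, 4 arrays each. SalV and SalD came from mice given 20 µl of control injection on postnatal days 1 to 5, which the sample labels call saline and the design text calls corn oil. GenV and GenD came from mice given 50 mg/kg genistein, an estrogenic isoflavone of soy, on the same days. In all 4 groups the adrenals and ovaries were removed at 6 weeks, so that little corticosterone or ovarian estrogen is made. At 8 weeks SalV and GenV received 100 µl of saline vehicle and SalD and GenD 1 mg/kg dexamethasone, a synthetic glucocorticoid, and the uterus was taken after 4 h. Strain, and whether each array stands for 1 animal, are not given in the sources used here, so each p-value rests on array-to-array spread alone, which may be technical.

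The 75th percentile of signal, used to scale each array, ran from 948 to 2719, with the lowest value in SalV array 3, which alone was scanned on another day. Between 68.9 and 81.3% of spots were well above background. The steroid-responsive genes Fkbp5, Tsc22d3, Per1 and Sgk1 rose with dexamethasone in both neonatal groups and the glucocorticoid receptor gene Nr3c1 fell. The marker lists of the uterus were measured in 7 of 8 epithelial, 6 of 7 stromal and 5 of 6 smooth muscle genes, and the epithelial sums lay at 98.3 to 281 and the smooth muscle sums at 79.0 to 296 times the 75th percentile. Of 10 adipocyte markers, 6 rose with dexamethasone in controls. The SalV and SalD arrays did not overlap for 1 of the 10, where 28.4% of all features were apart. The summed signal of the adipocyte markers, each gene relative to the 75th percentile of its array, was 18.5, 245, 217 and 96.7 in SalD arrays 1 to 4. It was 5.97 to 32.3 in SalV, 25.6 to 83.8 in GenV and 14.2 to 88.1 in GenD. Neutrophil markers fell with dexamethasone in both neonatal groups, 4 of 5 each time. Their sum lay between 2.83 and 3.83 in SalV and between 0.546 and 1.47 in SalD, and between 2.33 and 4.54 in GenV and between 0.489 and 0.975 in GenD. Of the stromal markers, 1 of 6 rose with dexamethasone in controls (Hoxa11) and 3 of 6 after genistein (Hoxa10, Hoxa11 and Hand2). Their sum lay between 81.4 and 101 in SalV and between 106 and 131 in SalD, and between 77.6 and 90.5 in GenV and between 97.2 and 113 in GenD, with no overlap in either neonatal group. In smooth muscle, 2 of 5 markers fell in controls and none of 5 was called after genistein. The smooth muscle sum lay between 178 and 296 in SalV and between 79.0 and 162 in SalD, with no overlap. It lay between 125 and 203 in GenV and between 103 and 231 in GenD, which overlapped. Of 6 endothelial markers, 2 fell in controls (Kdr and Plvap) and 1 after genistein (Plvap). Of 7 macrophage markers, 1 rose in controls (Mrc1) and 1 fell after genistein (Lyz2). Over all features tested, 8.44% rose and 14.6% fell with dexamethasone in controls, and 2.49% rose and 2.79% fell after genistein. No epithelial marker was called in any comparison. In whole tissue a change in the share of a cell type and a change of RNA per cell cannot be told apart.

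The promoters of Mt1, Mt2, Slc30a1 and Slc30a4, the metallothioneins and exporters that rose in at least 1 neonatal group, are printed because the binding core of Mtf1 can be read in them. Each runs from 250 bases before to 50 bases after the gene's start, 5′ to 3′ on the gene's strand, from RefSeq on GRCm38.p6, and capitals mark the metal response element core, TGCACNC or TGCGCNC, on either strand. The windows lie at chr8:94178839-94179138 (plus strand) for Mt1, chr8:94172368-94172667 (plus) for Mt2, chr1:191906531-191906830 (plus) for Slc30a1 and chr2:122702614-122702913 (minus) for Slc30a4.
Mt1: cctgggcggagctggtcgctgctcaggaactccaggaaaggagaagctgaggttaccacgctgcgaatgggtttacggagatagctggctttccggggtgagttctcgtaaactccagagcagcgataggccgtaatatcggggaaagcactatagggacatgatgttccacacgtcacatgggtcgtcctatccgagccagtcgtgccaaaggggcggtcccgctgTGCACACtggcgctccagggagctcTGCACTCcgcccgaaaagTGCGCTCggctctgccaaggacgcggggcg
Mt2: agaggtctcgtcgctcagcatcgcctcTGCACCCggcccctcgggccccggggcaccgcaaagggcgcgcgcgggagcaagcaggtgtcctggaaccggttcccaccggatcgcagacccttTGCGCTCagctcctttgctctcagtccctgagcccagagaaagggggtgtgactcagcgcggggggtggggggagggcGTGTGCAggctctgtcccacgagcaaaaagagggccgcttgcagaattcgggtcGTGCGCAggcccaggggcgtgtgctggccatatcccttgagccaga
Slc30a1: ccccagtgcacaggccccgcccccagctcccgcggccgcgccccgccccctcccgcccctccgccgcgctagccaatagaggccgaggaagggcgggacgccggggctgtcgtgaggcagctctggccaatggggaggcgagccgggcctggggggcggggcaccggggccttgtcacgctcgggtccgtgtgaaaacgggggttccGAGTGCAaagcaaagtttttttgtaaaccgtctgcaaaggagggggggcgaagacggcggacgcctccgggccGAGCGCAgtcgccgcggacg
Slc30a4: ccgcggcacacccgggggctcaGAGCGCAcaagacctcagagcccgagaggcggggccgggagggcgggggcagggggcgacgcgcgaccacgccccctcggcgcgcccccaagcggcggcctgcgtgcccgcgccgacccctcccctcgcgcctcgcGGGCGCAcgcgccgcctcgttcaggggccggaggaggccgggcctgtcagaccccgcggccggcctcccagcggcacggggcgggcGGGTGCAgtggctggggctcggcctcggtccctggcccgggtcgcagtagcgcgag

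The core occurred 3 times in the Mt1 window, 4 times in Mt2, 2 times in Slc30a1 and 3 times in Slc30a4. Of 32851 promoter windows of the same length in the table, 25.7% held at least 1 match, 7.11% at least 2 and 1.97% at least 3. The printed windows were chosen because they hold the core, so these shares make no test of them. Mt3 had 1 match and Mtf1 none. Slc39a8 had 0 in 1 of its windows and 1 in the other, and neither window of Slc39a10 had any. Slc39a14 had no window in the table and was not searched. Counted from the gene's start in RefSeq, the Mt1 matches began at bases -23, 3 and 21, all on the gene's strand. In Mt2 they began at bases -223, -128, -50 and 5, the first pair on the gene's strand and the others on the opposite strand. The glucocorticoid response element, searched as AGAACA and TGTTCT with 3 bases between them, was in none of the 10 windows of the 8 genes with a table entry and in 0.00913% of all windows. With so few matches in any window, its absence here says little about such elements. Bases outside the windows were not searched. The sequence TGTTCT alone, on either strand, was found in the Mtf1 window, 1 time, and in 19% of all windows. No matches overlapped each other. A match is a stretch of letters, not a measured binding site. The starts are those of RefSeq and were not measured in this tissue, so the counts hold for these windows alone.

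Dexamethasone in control mice raised 5 of the 9 genes and lowered none. Mt1, both exporters Slc30a1 and Slc30a4, and the importers Slc39a8 and Slc39a14 rose by 1.67-fold to 3.25-fold. A gene was called when limma's adjusted p, by Benjamini-Hochberg over all 24659 features, was below 0.05, and 23% of all features were called in this comparison, 8.44% as higher and 14.6% as lower. The median log2 change of the 9 genes was 0.74, against -0.16 over all features. After neonatal genistein, dexamethasone raised 4 of the 9, namely Mt1, Mt2, Slc30a1 and Slc39a8, where 5.28% of all features were called, 2.49% as higher and 2.79% as lower. Their median change was 0.74 there as well, against -0.015 over all features. The groups did not overlap for the 5 called genes in controls, where 28.4% of all features were apart, 10.9% with dexamethasone higher. After genistein they did not overlap for 7 of the 9, where 12.2% of features were apart, 6.03% with dexamethasone higher.

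**Figure D1:**
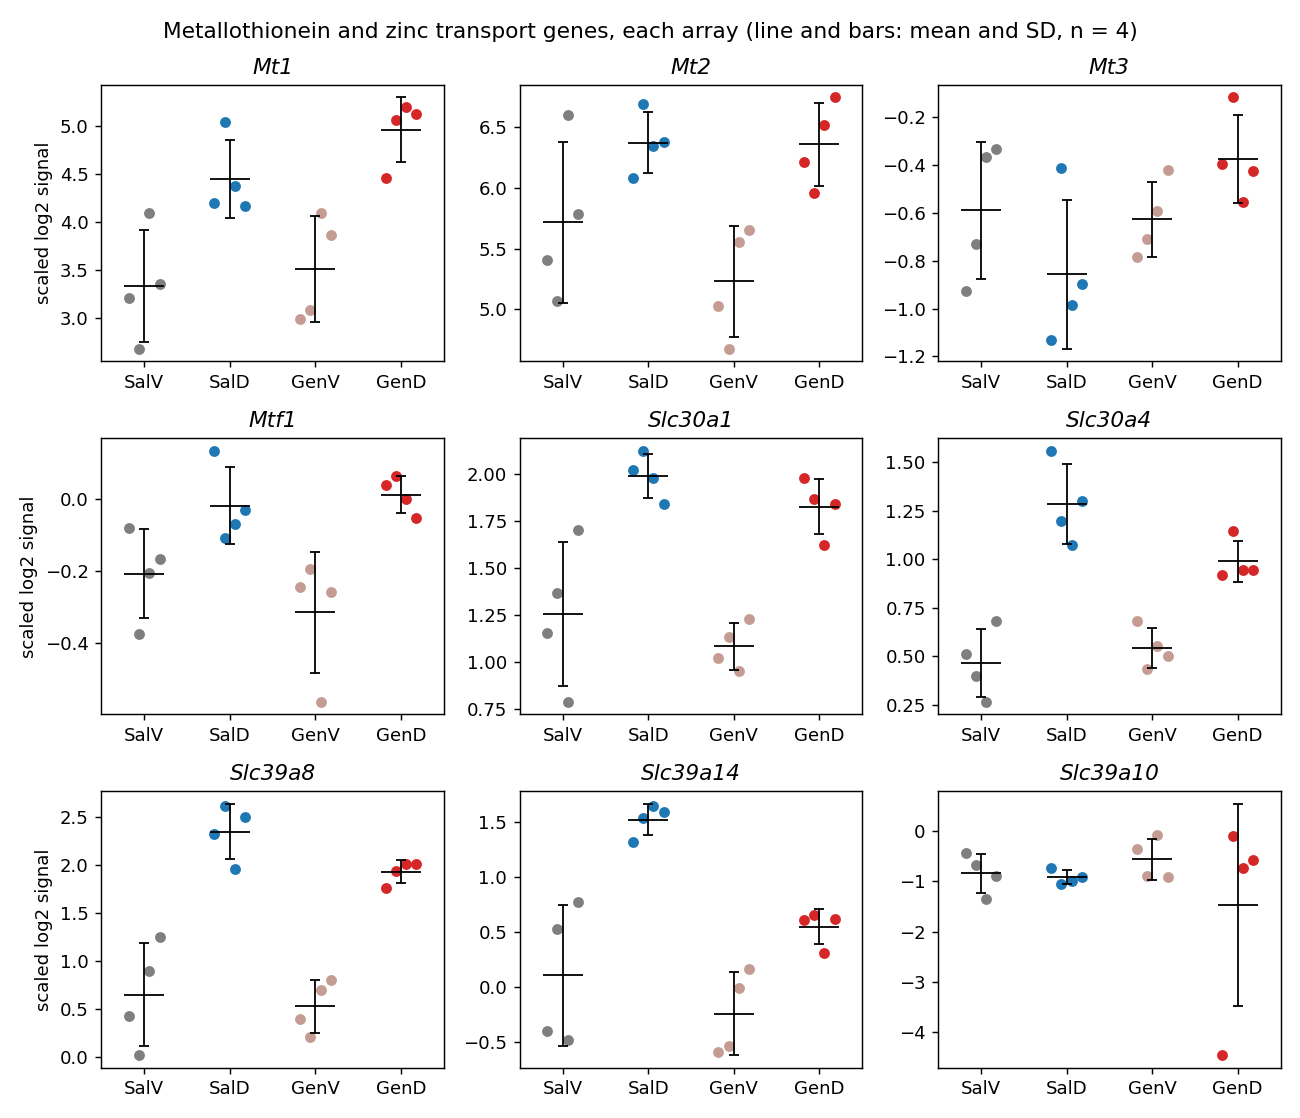
Scaled log2 signal (log2 signal minus the array's 75th percentile, vertical axis) of the 9 genes on each of the 16 arrays, by group, with replicates 1 to 4 from left to right; the line and bars are the mean and SD of 4 arrays. Slc39a8 in SalD and GenD lies above 1.75 on all 8 arrays and below 1.25 on the 8 vehicle arrays, and the low point of Slc39a10 is GenD array 1 at -4.45.

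Mt1, the first of the 2 main metallothioneins, had scaled log2 signals of 3.21, 2.68, 4.09 and 3.36 in SalV and of 4.20, 5.04, 4.37 and 4.16 in SalD. After genistein the values were 2.98, 3.09, 4.09 and 3.87 with vehicle and 4.46, 5.06, 5.19 and 5.12 with dexamethasone. Every dexamethasone array lay above every vehicle array of the same neonatal group, although SalV array 3 came within 0.1 of the lowest SalD array. The change was a log2 rise of 1.11 ± 0.32 (SE) in controls, or 2.16-fold, with limma's adjusted p = 0.0259, and of 1.45 ± 0.32 after genistein, or 2.73-fold, with adjusted p = 0.0183. The rise in controls missed the threshold without SalV array 1 (adjusted p = 0.0692), SalV array 2 (0.0732) or SalD array 2 (0.0653), and without SalD arrays 2 and 3, the pair with the highest adipocyte sums, it was 0.85 with adjusted p = 0.164. After genistein it missed without GenV array 1 (0.0586), GenV array 2 (0.0521), GenD array 2 (0.0509) or GenD array 3 (0.0593), with normexp background correction (0.065) and in a fit of only the arrays compared (0.0518).

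The probe of Mt1 was printed 10 times on each array, which shows the noise between spots of 1 array, but not that of RNA preparation, labelling or hybridization. The SD over the repeated spots of 1 array was 0.034 to 0.131 with a median of 0.064, after 1 outlier spot was left out. The SD between arrays of the same group, pooled over the 4 groups, was 0.480. The spread within groups was thus several times that of repeated spots, and SalV array 3 and GenV arrays 3 and 4 were high in all their spots. A second, dimmer Mt1 probe rose by 0.91 ± 0.26 in controls (limma's adjusted p = 0.023 over all probes). After genistein it rose by 1.13 ± 0.26 (adjusted p = 0.0216). Its mean scaled log2 signal was -2.72, against 4.06 for the main probe.

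**Figure D2:**
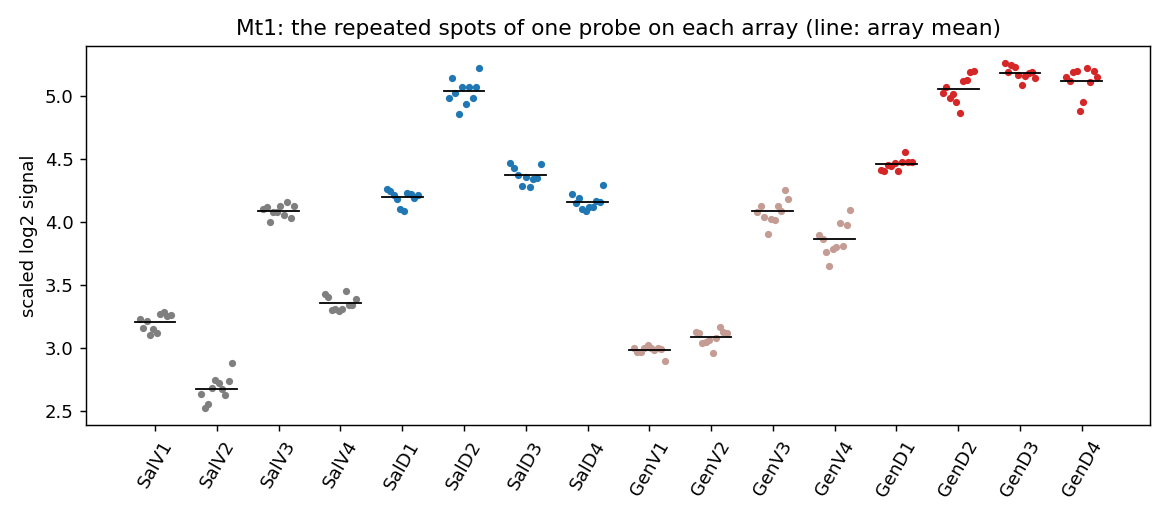
Scaled log2 signal of each spot of the main Mt1 probe (10 per array, less 1 outlier) on the 16 arrays, with a line at the array mean. Spots of an array lie close together, with a median SD of 0.064, while arrays of 1 group are spread, with a pooled SD of 0.480.

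Mt2, the neighbouring metallothionein gene, had scaled log2 signals of 5.41, 5.07, 6.60 and 5.79 in SalV and 6.08, 6.69, 6.34 and 6.38 in SalD. Its values were 5.03, 4.67, 5.56 and 5.65 in GenV and 6.22, 5.96, 6.52 and 6.74 in GenD. SalV array 3 lay above 3 of the 4 SalD arrays, so the control groups overlapped, whereas the genistein groups did not. The log2 difference was 0.66 ± 0.31 (SE) in controls with limma's adjusted p = 0.135, and the rise after genistein was 1.13 ± 0.31, or 2.19-fold, with adjusted p = 0.0485. Without SalV array 3 the difference in controls was 0.95 ± 0.27 with adjusted p = 0.0265, quantile normalization gave 0.82 with adjusted p = 0.0216, and the slide as a fixed block, which takes out that array since it is alone on its slide, 0.91 with 0.0489. The rise after genistein held its direction in all 29 alternatives but passed the threshold in 11 of them, with adjusted p from 0.000201 to 0.172. Median centring gave 1.17 with adjusted p = 0.0909, and normexp 1.02 with 0.172.

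Mt3 differed by -0.27 ± 0.18 (adjusted p = 0.297) in controls and by 0.25 ± 0.18 (adjusted p = 0.523) after genistein, with all 16 values between -1.13 and -0.12. The vehicle and dexamethasone groups overlapped in both cases. Mt4, a metallothionein of stratified epithelium that was read with the copper genes, fell in controls by 0.85 ± 0.28 (limma's adjusted p = 0.0413), a call lost in 14 of 29 alternatives, with adjusted p of up to 0.303 under quantile normalization. It was lost without SalV array 1 (0.0887), SalV array 3 (0.113), GenV array 1 (0.051), GenD array 3 (0.0518) or any 1 of the 4 SalD arrays (0.0531 to 0.101). After genistein it differed by -0.01.

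Mtf1, the zinc sensor, had values between -0.38 and -0.08 in SalV and between -0.11 and 0.14 in SalD, with 1 pair of arrays overlapping. GenV ran from -0.56 to -0.19 and GenD from -0.05 to 0.06, with no overlap. The differences of 0.19 ± 0.12 (adjusted p = 0.25) and 0.33 ± 0.12 (adjusted p = 0.13) did not pass. A second Mtf1 probe, also well above background on all arrays, rose in controls by 0.49 ± 0.15 (limma's adjusted p = 0.035) and differed by 0.36 ± 0.15 (adjusted p = 0.223) after genistein. Median centring raised the first probe's change in controls to 0.42 with adjusted p = 0.0278. With array weights that probe passed after genistein, at 0.25 (adjusted p = 0.0323). The dimmest Mtf1 probe was well above background on 4 of 4 SalD arrays, 1 of 4 SalV, 1 of 4 GenV and none of the 4 GenD arrays. The mean of the gene's probes, that dim one among them, passed in controls at 0.68 (adjusted p = 0.00647).

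Slc30a1, the plasma membrane exporter that protects cells from excess zinc, had scaled log2 signals of 1.15, 1.37, 0.79 and 1.70 in SalV and 2.02, 2.12, 1.97 and 1.84 in SalD. They were 1.02, 1.13, 0.95 and 1.23 in GenV and 1.97, 1.86, 1.62 and 1.84 in GenD. SalV array 3 was the lowest and SalV array 4 the highest of the vehicle arrays, and neither pair of groups overlapped. The log2 rise was 0.74 ± 0.17 (SE) in each neonatal group, 1.67-fold both times, with limma's adjusted p = 0.00804 in controls and 0.0194 after genistein. A second probe rose by 1.07 ± 0.15 (adjusted p = 0.000513) and 0.88 ± 0.15 (adjusted p = 0.00315). The call in controls was lost without SalD arrays 2 and 3 (adjusted p = 0.0578), and that after genistein without GenV array 1 (0.0545), GenV array 3 (0.0507), GenD array 1 (0.0564) or GenD array 2 (0.0509) and under normexp (0.0928).

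Slc30a4, an exporter that loads zinc into vesicles and milk, had values of 0.51, 0.40, 0.26 and 0.68 in SalV and 1.56, 1.20, 1.08 and 1.30 in SalD. The genistein groups had 0.68, 0.43, 0.55 and 0.50 with vehicle and 0.92, 1.14, 0.95 and 0.94 with dexamethasone. All dexamethasone arrays lay above all vehicle arrays. The rise in controls was 0.82 ± 0.13, or 1.76-fold, with adjusted p = 0.00123, and it passed in all 29 alternatives, at 0.97 without SalD arrays 2 and 3. The difference after genistein, 0.45 ± 0.13, had adjusted p = 0.0679, and passed among probes well above background on all arrays (0.0468) and with array weights (0.0186).

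Slc39a8, an importer of zinc, manganese and other divalent metals that is known to be induced in inflammation, had the largest change of the set in controls, while after genistein that of Mt1 was slightly larger. Its scaled log2 signals were 0.43, 0.02, 0.90 and 1.25 in SalV and 2.32, 2.61, 1.95 and 2.50 in SalD. They were 0.39, 0.21, 0.70 and 0.80 in GenV and 1.76, 1.93, 2.01 and 2.01 in GenD. Its 8 dexamethasone arrays all lay above its 8 vehicle arrays, whatever the neonatal treatment. The rise was 1.70 ± 0.24, or 3.25-fold (95% confidence interval 1.19 to 2.20 on the log2 scale), with limma's adjusted p = 0.000503 in controls, and 1.40 ± 0.24, or 2.64-fold (0.89 to 1.91), with adjusted p = 0.00319 after genistein. Both passed in all 29 alternatives, and within single slides the change ran from 0.71 to 2.30 and from 1.13 to 1.80. A second, dimmer probe rose by 1.27 ± 0.33 (adjusted p = 0.0155) and 1.54 ± 0.33 (adjusted p = 0.0158). Its mean scaled log2 signal was -2.95, against 1.36 for the first probe.

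Slc39a14, which imports zinc, iron and manganese and is known from the acute-phase response of liver, had values of -0.40, 0.52, -0.48 and 0.77 in SalV and 1.31, 1.53, 1.64 and 1.59 in SalD. In the genistein groups they were -0.59, -0.54, -0.01 and 0.16 with vehicle and 0.60, 0.65, 0.31 and 0.62 with dexamethasone. The 4 SalD arrays stood above the other 12 arrays, while GenD lay above GenV but within the range of SalV. The rise in controls was 1.42 ± 0.26, or 2.67-fold, with adjusted p = 0.00285, and it passed in all 29 alternatives. The difference after genistein was 0.79 ± 0.26 with adjusted p = 0.109, and it passed with array weights (0.89, adjusted p = 0.00434). A second, dimmer probe differed by 0.40 ± 0.27 (adjusted p = 0.299) and 0.14 ± 0.27 (adjusted p = 0.871), so the calls rest on 1 of 2 probes. The mean scaled log2 signal of the second probe was -3.02, against 0.48 for the first.

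Slc39a10, an importer of the plasma membrane, had values from -1.35 to -0.43 in SalV, -1.05 to -0.73 in SalD and -0.92 to -0.09 in GenV. GenD had -4.45, -0.11, -0.74 and -0.58, where array 1 gave a signal of 77.8 against 371 to 1657 on the other 15 arrays, with no spot flag. The difference was -0.08 ± 0.68 in controls (adjusted p = 0.945) and -0.91 ± 0.68 after genistein (adjusted p = 0.56), and GenD array 1 widens the SE of both through the pooled variance. Without it the differences were -0.08 ± 0.23 in controls, which did not pass either, and 0.09 ± 0.25 (adjusted p = 0.919) after genistein.

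**Figure D3:**
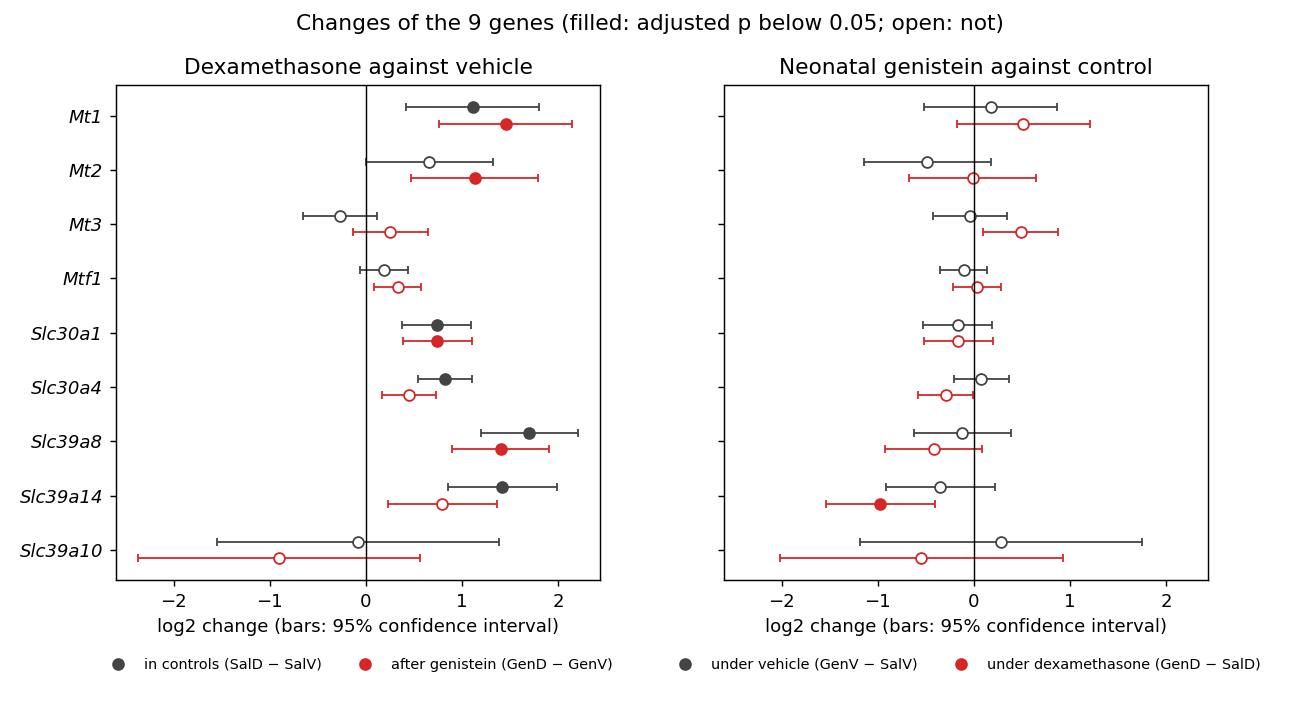
Log2 change (horizontal axis) with its 95% confidence interval for the 9 genes, on the left for dexamethasone against vehicle and on the right for neonatal genistein against control; filled points passed limma's adjusted p of 0.05. On the left 5 black and 4 red points are filled, and on the right only Slc39a14 under dexamethasone, at -0.97.

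SalD array 1, whose adipocyte sum of 18.5 lay within the SalV range of 5.97 to 32.3, read 2.32 for Slc39a8, 1.31 for Slc39a14, 1.56 for Slc30a4, 2.02 for Slc30a1 and 4.20 for Mt1, each above all 4 SalV arrays. Without SalD arrays 2 and 3, Slc39a8 (1.76), Slc30a4 (0.97) and Slc39a14 (1.35) still passed, 3 of 9 genes. SalD array 4, kept in that fit, had an adipocyte sum of 96.7, above the SalV range. The part of adipocyte content in the rises was not tested. The fall of the neutrophil sums and the rise of the stromal sums (81.4 to 101 in SalV against 106 to 131 in SalD, and 77.6 to 90.5 in GenV against 97.2 to 113 in GenD) ran beside the rises in both neonatal groups, and their part in them was not tested. In controls the smooth muscle sums were also lower with dexamethasone, at 178 to 296 in SalV against 79.0 to 162 in SalD. The part of smooth muscle content in the rises was not tested either.

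The dexamethasone effect after genistein did not pass a test of difference from that in controls for any of the 9 genes. The interaction had no call among all 24659 features by limma (0%), where 3833 of them had an unadjusted p below 0.05 and none of the 9 did, and array weights gave 96 calls, none of them in the set. For Mt1 the difference of the effects was 0.34 (95% confidence interval -0.64 to 1.32) and for Mt2 0.47 (-0.46 to 1.41). For Mt3 it was 0.52 (-0.02 to 1.07), for Slc30a4 -0.37 (-0.77 to 0.03) and for Slc39a14 -0.62 (-1.43 to 0.18). These intervals are wide beside the changes themselves. So Mt2 called only after genistein, and Slc30a4 and Slc39a14 called only in controls, were not shown to respond differently.

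Without dexamethasone, neonatal genistein left none of the 9 genes called, where 0.00406% of all features were, and the SalV and GenV arrays overlapped for every gene of the set, while 4.78% of features were apart. The differences ranged from -0.49 ± 0.31 for Mt2 (adjusted p = 0.439) to 0.28 ± 0.68 for Slc39a10 (adjusted p = 0.847), or 0.28 ± 0.23 (adjusted p = 0.547) without GenD array 1. Under dexamethasone Slc39a14 alone was called, lower after genistein by 0.97 ± 0.26 on the log2 scale, or 1.96-fold, with limma's adjusted p = 0.0205, in a comparison where 23% of all features were called, 16.6% as higher and 6.39% as lower. Its groups were also the 1 pair of the 9 that did not overlap, where 28.6% of all features were apart, 9.05% with genistein lower. The call was lost without SalD array 3 (adjusted p = 0.0521), GenD array 3 (0.0581) or SalD arrays 2 and 3 together (0.113), and in the mean of its 2 probes (-0.44, 0.159), the dim probe differing by 0.10. For Mt3 the difference was 0.48 ± 0.18 with adjusted p = 0.0649, and it passed without SalD array 2 (0.63, 0.023). Mt1 differed by 0.51 ± 0.32 (adjusted p = 0.255) and Mt2 by -0.01 ± 0.31 (adjusted p = 0.975).

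The order of the group means is given for the brightest probe of each gene. It was the same for Slc30a1 and Slc39a8, SalD above GenD above SalV above GenV. In both genes neither SalD and GenD nor SalV and GenV differed by the test. Slc30a4 ran SalD, GenD, GenV, SalV and Mt1 ran GenD, SalD, GenV, SalV, again with no call between neighbours of like adult treatment. Slc39a14 ran SalD, GenD, SalV, GenV, with the called step between SalD and GenD. Mt2 ran SalD, GenD, SalV, GenV with no call between SalD and GenD or between SalV and GenV. The neighbours GenD and SalV overlapped in Slc39a14, Mt2 and Slc30a1, and for Slc39a14 3 of 4 GenD arrays lay between the second and the highest SalV value. Second probes gave other orders. That of Slc39a8 ran GenD, SalD, SalV, GenV, and that of Slc30a1 ran SalD, GenD, GenV, SalV. For Mt1 the second probe ran SalD, GenD, SalV, GenV, and for Slc39a14 GenD, SalD, GenV, SalV.

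**Figure D4:**
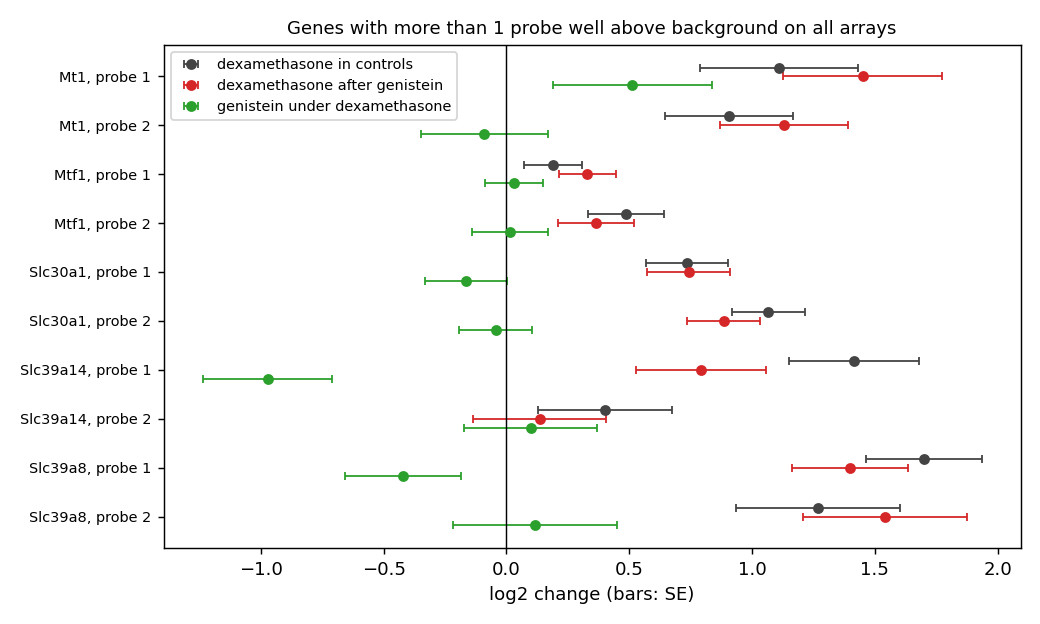
Log2 change with its SE (horizontal axis) for each probe that was well above background on all 16 arrays, in the 5 genes with more than 1, the brighter probe first. The probes of Mt1, Slc30a1 and Slc39a8 all rose with dexamethasone, and the second probe of Slc39a14 lies near 0 for genistein under dexamethasone (0.10), away from the first (-0.97).

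The rest of both zinc transporter families was read from lists chosen by family membership. Of 8 other Slc30 genes 6 were measured, and in controls 2 of them rose with dexamethasone and none fell, where 23% of all features were called, 8.44% as higher. Slc30a5, which moves zinc into the early secretory pathway, rose by 0.88 ± 0.15 (limma's adjusted p = 0.00191), and Slc30a2, a vesicular exporter, by 1.29 ± 0.26 (adjusted p = 0.00452), though under normexp the latter was -0.15. Of 11 other Slc39 genes 10 were measured, and 1 rose while 2 fell, against 14.6% of all features that fell. Slc39a6 rose by 0.43 ± 0.13 (adjusted p = 0.034), Slc39a1 fell by 0.38 ± 0.13 (adjusted p = 0.0463) and Slc39a2 fell by 1.09 ± 0.32 (adjusted p = 0.0249). The calls of Slc39a1, Slc39a2 and Slc39a6 in controls were less steady, and were lost in 19, 9 and 11 of 29 alternatives, up to adjusted p = 0.572 for Slc39a1 under median centring, while Slc30a5 passed in all 29. Slc39a6 was lost without any 1 of the 4 SalV arrays or SalD array 2, 3 or 4 (adjusted p = 0.0504 to 0.0878), and Slc39a2 without SalV array 1 or 2 or SalD array 1 or 4 (0.0540 to 0.0829). Slc39a1 was lost without SalV array 1, 3 or 4, any SalD array, GenV array 1, 2 or 3, or GenD array 3 or 4 (0.0519 to 0.119). Median changes were 0.13 for these exporters and -0.13 for these importers, against -0.16 over all features. After genistein none of the 6 and none of the 10 was called. Under dexamethasone, Slc30a5 was lower after genistein by 0.53 ± 0.15 (adjusted p = 0.0266) and Slc39a2 higher by 1.46 ± 0.32 (adjusted p = 0.00852). The former was lost in 6 of 29 alternatives, among them those without SalD array 3, GenD array 3 or GenD array 4 (0.0662 to 0.0712), and the latter in none.

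**Figure D5:**
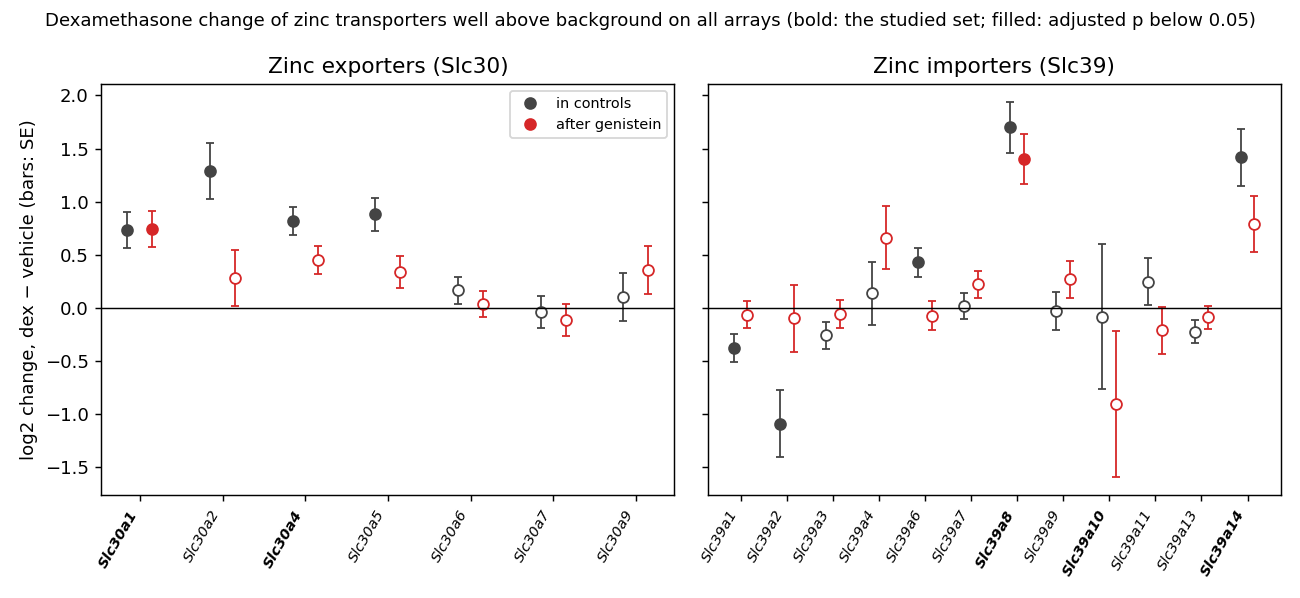
Log2 change with dexamethasone (vertical axis, bars are SE) for each zinc transporter that was well above background on all 16 arrays, exporters on the left and importers on the right, in controls (black) and after genistein (red), with the set described here in bold. Slc39a8 at 1.70 and 1.40 stands highest, and Slc30a1 and Slc39a8 are the transporters filled in both colours.

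Genes of other metals and of metal stress were given for comparison. Among 10 measured copper genes, Mt4 alone was called in controls, and under dexamethasone Mt4 was higher after genistein by 1.86 ± 0.28 (limma's adjusted p = 0.00283) and the copper pump Atp7b by 1.00 ± 0.32 (adjusted p = 0.0376). Of 14 iron genes, 5 rose in controls and 1 fell, where 8.44% of all features rose and 14.6% fell. The siderophore-binding Lcn2 rose by 1.68 ± 0.39 (adjusted p = 0.00868), the copper-dependent ferroxidase Heph by 1.08 ± 0.19 (adjusted p = 0.00187), and the transferrin receptor Tfrc, the iron importer Slc11a2 and the iron-regulatory protein gene Ireb2 by 0.33 to 0.67. The ferrireductase gene Steap3 fell by 1.95 ± 0.60 in controls (adjusted p = 0.0329) and by 2.49 ± 0.60 after genistein (adjusted p = 0.0276), the 1 iron gene called there. Its probe was well above background on 3 of 4 GenD arrays, so the size of the fall after genistein is uncertain. Under dexamethasone, where 23% of all features were called, Ftl1 was higher after genistein by 0.57 and Cybrd1 lower, at -0.95. Hamp passed the test as well, but its probe was well above background on 1 of 4 SalD and 3 of 4 GenD arrays, and on none of the 4 SalV arrays, so no size is given. Of 10 metal and oxidative stress genes, Sqstm1 fell by 0.66 ± 0.18 in controls (adjusted p = 0.0169), Gclm was lower by 0.76 ± 0.23 after genistein under dexamethasone (adjusted p = 0.0288), and no other call was made, so Hmox1 was not called in any of the 5 comparisons. Heph in controls and Mt4 under dexamethasone passed in all 29 alternatives, and Lcn2 in 28. Steap3 in controls missed the threshold without any 1 of the 8 arrays compared (adjusted p = 0.0512 to 0.0822), and after genistein without GenV array 1, 2 or 3 (0.0568 to 0.0697), with only the arrays compared (0.175), with the slide as a fixed block (0.101) and under normexp, where its change was -0.76 (0.348). Hamp passed in 9 of 28 alternatives. Atp7b missed without any SalD array or GenD array 2 or 4 (up to 0.102), and Cybrd1 without SalD array 3 or 4 or GenD array 2 or 3 (up to 0.0978). Ftl1 missed without SalD array 1 or 4 or GenD array 1, 2 or 4 (up to 0.0674), Gclm without SalD array 3 or 4 or GenD array 1 or 2 (up to 0.0818), and Sqstm1 without SalD array 4 (0.0548). Under normexp Gclm was -0.35 (adjusted p = 0.304), and Atp7b (0.0502), Cybrd1 (0.0795), Ftl1 (0.0599) and Sqstm1 (0.0889) missed too. Median centring took Sqstm1 to -0.43 (0.12) and Ftl1 to an adjusted p of 0.126, the mean of the probes took Cybrd1 to 0.158, and array weights took Atp7b to 0.0726. Sqstm1 and Cybrd1 were also lost with the slide as a fixed block (0.0629 and 0.0601) and with only the arrays compared (0.0595 and 0.0521). Without SalD arrays 2 and 3 together, Atp7b, Cybrd1, Ftl1, Gclm, Lcn2 and the fall of Steap3 in controls missed the threshold (0.0591 to 0.215).

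The genes whose course over the 16 arrays was most like that of Mt1 were ranked by the root mean square of the difference of their scaled log2 signals, each centred on its own mean. They were Csrnp1 (0.224), Prr5 (0.302), Il17rb (0.309), Agfg2 (0.313) and Rpl3l (0.346), and Mt2 itself stood at 0.423 from Mt1. For Mt2 they were Pla2g10 (0.238), Nrg4 (0.287), Gstm5 (0.298), Pllp (0.309) and Gpt2 (0.314). Csrnp1 rose by 1.33 in controls and 1.36 after genistein, close to the 1.11 and 1.45 of Mt1. The 2 lists share no gene.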

How the data were processed

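Per the file headers, the authors deposited linear spot intensity, corrected for background and spatial trend in Agilent Feature Extraction 12.0.0.7 (9.5 per the submitters' processing notes), without scaling between arrays. The deposited value table of the series is identical to it (largest difference 0).

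From these, log2 of the signal minus the array's 75th percentile was taken, outlier spots were set to missing, repeated spots averaged, 807 probes with a missing value dropped, and 32606 probes well above background on at least 4 arrays kept. Other spot flags deposited by the authors (0 or 1) served as filters. RefSeq accessions without version named 28223 of 29245 RefSeq probes. Each gene was read from its brightest kept probe. A model of 4 group means over 16 arrays was fitted with limma 3.58.1 in R 4.3.3 (data.table package, version 1.17.8), with two-sided p adjusted by Benjamini-Hochberg over 24659 features. The fit was checked on simulated data. Figures used matplotlib 3.10.9 in Python 3.11.15. Arrays, not counts, limit the precision.

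The 9 genes, the lists (other zinc transporters, copper, iron, metal stress, steroid reference genes, cell type markers), the tests and alternatives were chosen with earlier results of these data known. Genes named are the 9, called list members, and 5 likest genes each for Mt1 and Mt2.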

Additional observations from a re-analysis of the deposited data

Results flagged for a closer look

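In 3 of 36 groups of 4 arrays, 1 array stood apart from the others by Dixon's criterion, and chance gives about 1 in 20. All 3 were GenD arrays. Slc39a10 read -4.45 on GenD array 1, where the nearest of the others read -0.74, and without that array the GenD mean was -0.48 ± 0.33 (SD, n = 3). Slc30a4 read 1.14 on GenD array 2, where the nearest read 0.95. Slc39a14 read 0.31 on GenD array 3, where the nearest read 0.60.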

How the results depend on the processing

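The 29 alternatives were 16 fits without 1 array and 13 other settings. Slc39a8 in both neonatal groups, and Slc30a4 and Slc39a14 in controls, passed in all of them. Of the 9 genes, leaving out 1 array left 4 to 6 called with dexamethasone in controls, 1 to 4 after genistein and 0 to 2 for genistein under dexamethasone, and 0 for genistein under vehicle and for the interaction. The count in controls was 3 without SalD arrays 2 and 3. After genistein it was 1 under normexp, 2 with only the arrays compared and 7 with array weights. For genistein under dexamethasone it was 0 in the mean of a gene's probes and without SalD arrays 2 and 3, and 4 with array weights. Over all features, leaving out 1 array gave 3109 to 5885 calls with dexamethasone in controls, 719 to 1228 after genistein, 0 to 1 for the interaction, 0 to 2 for genistein under vehicle and 3295 to 5980 under dexamethasone. Normexp gave 3325, 370 and 3297 calls for dexamethasone in controls, after genistein, and genistein under dexamethasone. Calls after genistein were 831 with the slide as a fixed block and 569 with only the arrays compared. Array weights gave 6064 after genistein, 96 for the interaction, 2 for genistein under vehicle and 11034 under dexamethasone. Without SalD arrays 2 and 3 there were 3587 in controls and 2396 for genistein under dexamethasone. Genistein under vehicle had 0 calls, in place of 1, under quantile normalization, median centring, normexp, no filter, the fixed slide block, the replicate block, only the arrays compared and without SalD arrays 2 and 3. Slc30a2 in controls turned to -0.15 under normexp and Hamp, genistein under dexamethasone, to -0.024 within slide 3. The cause of these changes was not tested. The median of all features in controls moved from -0.16 to 0.07 under median centring, which took the share of higher calls from 36.7% to 64.8%, and quantile normalization to 47.3%. For genistein under dexamethasone that share went from 72.2% to 56.3% and 55.4%. Median centring turned the sign of none of the called changes of the 9 genes.

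The labels do not say whether the replicate numbers pair the samples. Deviations of same-numbered arrays correlated from -0.37 to 0.38, 8 of 24 over 0.1, and those of other pairs across groups from -0.42 to 0.39. Of 16 arrays, 5 matched their own number best. These values do not settle whether the samples were paired. With the replicate block Mt1 rose by 1.11 (limma's adjusted p = 0.0193) and 1.45 (0.016), and no call among the 9 genes changed. The slide as a fixed block drops SalV array 3, alone on its slide. As a random block the slide correlation was 0.031. The normexp fit used median spot signals. The number of arrays, 4 a group, limits the precision.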
